A study of Caenorhabditis elegans with 6 samples.

Results

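The bath and math genes of Caenorhabditis elegans were followed in messenger RNA from whole gravid adults of 3 strains. They were taken by name from the deposited count table, as every gene called bath or math with a number, and kept where at least 2 of the 6 libraries held 10 or more counts. The name matched 93 of the 46748 genes in the table, 44 bath and 49 math. All 44 bath genes and 24 of the math genes met the count rule, which left 68 genes. The same rule kept 15406 genes over the whole table. The members were thus selected on their counts in these libraries, and their presence in these animals is not a finding. At the edge of the rule, bath-33, math-15 and math-21 had a second-highest count of 10, against 9 for math-48 and 8 for math-28 just outside. The 25 genes under the rule were all math genes, and 4 of them had no read in any library.

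Each strain had 2 libraries. SIN (strain OD1175) and WT (strain OD1463) both lack the normal chromosomal csr-1 gene through the deletion csr-1(tm892), for which they are homozygous, and both are homozygous for transgenes. The labels leave SIN unexplained, and it is known from the study as CSR-1 that cannot slice RNA, while WT has the normal protein. N2 is the usual laboratory strain, with an intact csr-1 and no transgene. Per the labels' protocols, a library was made from 100 picked adults raised at 20 °C, and the SIN and WT animals were the homozygous offspring of heterozygous, balanced mothers, told apart by how they moved. Nothing in the labels states whether the 2 libraries of a strain came from separate cultures, so the p-values cover only the spread between these samples, which may be technical. In whole animals, fewer cells of a type and less RNA per cell cannot be told apart.

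The MATH domain is a protein-binding fold first recognised in meprins and in the TRAF signalling adaptors. BATH proteins join it to a BTB domain, which docks on the scaffold protein CUL-3, so that the MATH domain brings a substrate to a CUL-3 ubiquitin ligase. MEL-26, the best studied protein of this build in the worm, hands the katanin subunit MEI-1 to CUL-3 after meiosis, and SPOP is a human protein of the same build. Proteins named MATH have the domain without the BTB part. Nematodes carry many such genes, in tandem arrays, and few have a known function. CSR-1 is an Argonaute protein that binds 22G RNAs, short antisense RNAs that begin with G, and in the germline these match many expressed messages.

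The libraries held 39865531 and 34654600 counts in SIN, 42126710 and 33739391 in WT, and 44962816 and 42435429 in N2. The members took between 0.143% and 0.173% of a library's counts. csr-1 itself stood at 788 and 895 RPKM in SIN, 179 and 172 in WT, and 120 and 129 in N2 (reads scaled to the deposited gene length and to library size). It was 4.79-fold higher in SIN than in WT (edgeR quasi-likelihood test, Benjamini-Hochberg adjusted p = 0.000223) and 6.75-fold higher than in N2 (adjusted p = 7.18e-05). The 1.41-fold difference between WT and N2 did not pass (adjusted p = 0.122). Reads of the transgenes and of the chromosomal gene cannot be told apart in these counts. Of the 7 sperm markers listed, 5 were tested, and spe-9 and fer-1 rose in SIN against WT. The sperm markers summed to 15.8 and 16.2 CPM (counts scaled to library size) in SIN, 7.04 and 7.0 in WT, and 6.48 and 5.05 in N2. Of 7 oocyte and germline markers, glp-1 rose and oma-1, oma-2, puf-5 and gld-1 fell in SIN against WT, with sums of 4680 and 4510 CPM in SIN, 5540 and 5310 in WT, and 5160 and 5070 in N2. The sums over 6 embryo markers were 150 and 137 CPM in SIN, 188 and 181 in WT, and 208 and 201 in N2. Of the 6, pal-1 fell in SIN against WT and the other 5 did not pass. The change was positive in 2 of the 6 and negative in 4. Among 5 intestine markers ges-1 rose, and none of 3 body wall muscle markers passed. No marker was at 0 in all libraries. The part of these markers in the results below was not tested.

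The 68 genes covered a wide range of levels. The 6 most abundant all lie outside the runs of neighbouring members described below, and 22 genes averaged under 1 RPKM over the 6 libraries. bath-42 had the most, with 154 and 133 RPKM in SIN, 162 and 163 in WT, and 180 and 165 in N2. bath-41 followed at 97.5 and 92.2 RPKM in SIN, 140 and 131 in WT, and 128 and 120 in N2. bath-40 stood at 115 and 99.8 RPKM in SIN, 116 and 112 in WT, and 114 and 108 in N2. bath-42 lay above both other genes in each of the 6 libraries, while the ranges of bath-41 and bath-40 overlapped. math-33, a deubiquitinase related to human USP7, stood below them at 62.3 and 64.6 RPKM in SIN, 68.4 and 66.1 in WT, and 83.5 and 77.1 in N2. Its 6 values lay above all 6 of bath-44, which had 57.1 and 53.4 RPKM in SIN, 59.4 and 58.2 in WT, and 58.7 and 55.6 in N2. bath-43, called spop-1 in the current annotation after its likeness to SPOP, overlapped both, at 55.4 and 47.3 RPKM in SIN, 63.5 and 60.3 in WT, and 55.1 and 55.6 in N2. In all, 14 genes averaged 10 RPKM or more and 32 lay from 1 to under 10 RPKM.

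**Figure D1:**
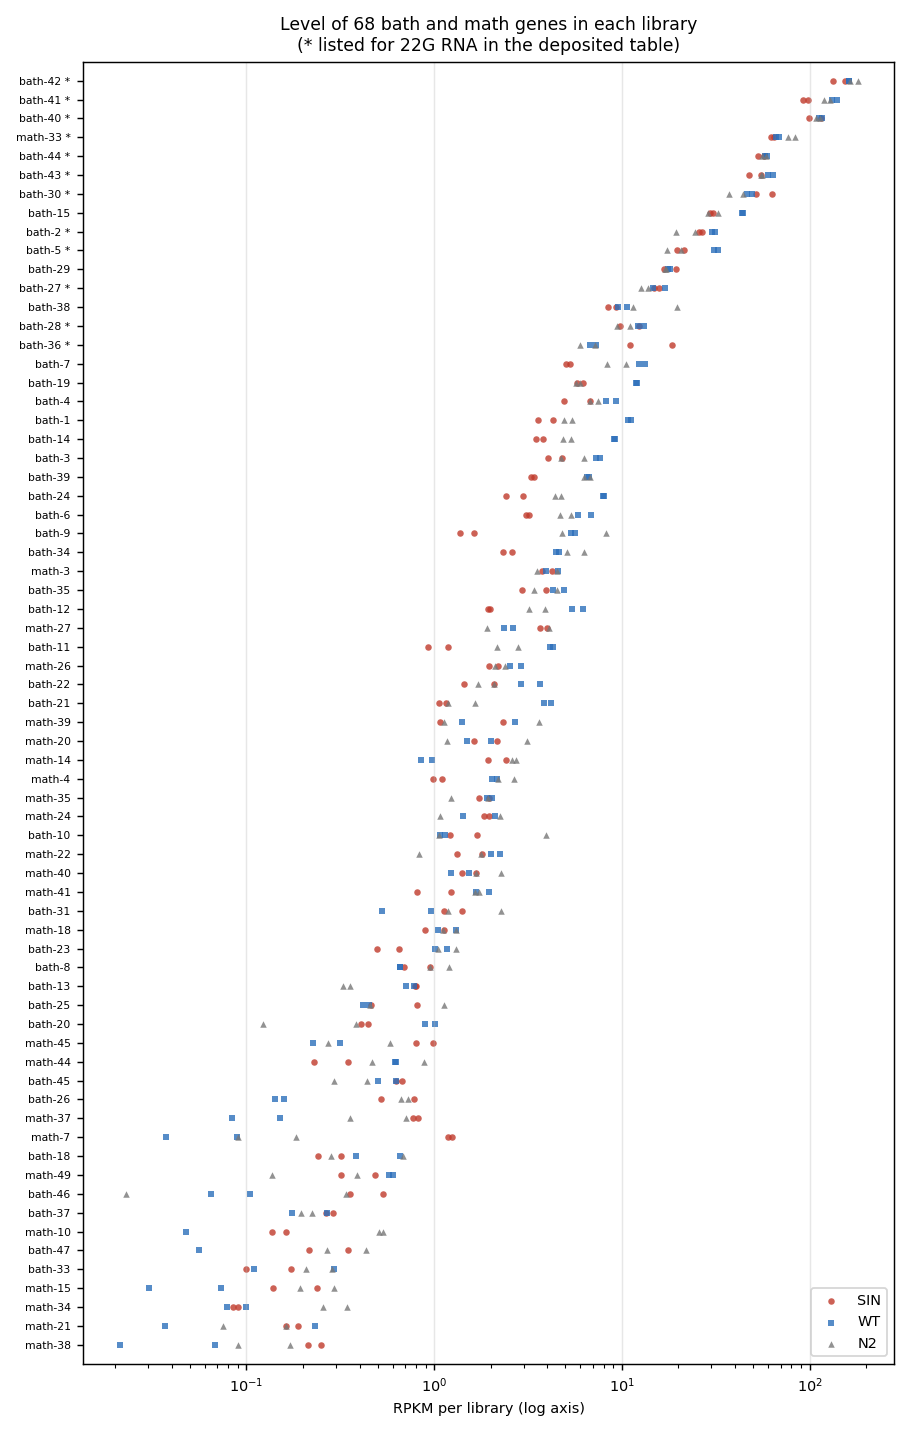
RPKM of each of the 68 kept genes (rows, highest mean at the top) in each of the 6 libraries on a log axis, with SIN as circles, WT as squares and N2 as triangles; an asterisk marks genes listed for 22G RNA in the deposited table, and the 2 values of 0 (bath-47 and math-10, both in a WT library) cannot be drawn. The rows run from 160 RPKM (mean of 6 libraries, bath-42) at the top to 0.135 RPKM (math-38) at the bottom, and the asterisks sit near the top.

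The genes with 22G RNA listed in the deposited table were among the most abundant. The table gives 22G RNA from 2 earlier studies, and 12 of the 68 genes have an entry from Claycomb (11 genes), from Conine (10 genes) or from both. Of the 14 genes at 10 RPKM or more, 11 were among these 12. Of all 15404 genes tested, 5641 have an entry from Claycomb or Conine. In the Conine CSR-1 immunoprecipitate the highest entries were 127 RPM (reads scaled to library size) for math-33, 114 for bath-42 and 105 for bath-40. In the Claycomb column the normalized scores were 277 for math-33, 262 for bath-40 and 156 for bath-42. bath-36 was listed by Conine alone, with 33.9 RPM and an enrichment score of 0.771, the lowest of the 10 entries. The other entries from Claycomb, Conine or both were those of bath-41, bath-44, bath-43, bath-30, bath-2, bath-27, bath-5 and bath-28, of which bath-5 and bath-28 were listed by Claycomb alone. Of the genes at 10 RPKM or more, bath-15, bath-29 and bath-38 had no entry from either study. These columns describe other animals, and their 22G RNA was not measured in the 3 strains here.

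On the WBcel235 genome, 56 of the 68 genes lie on chromosome II, 4 each on I and III, 3 on V and 1 on IV. Most of those on chromosome II sit in short runs. Joining members less than 20 kb apart, a distance set with the values known, gave a run from math-44 to bath-14 (II, 1989310 to 2049175) that holds 11 of the kept genes, and one from math-15 to math-49 that holds 13. Another held 8, from bath-28 to bath-8 (II, 3343731 to 3381403), and a further one 5, from math-38 to bath-33 (II, 1577378 to 1606179). Of the kept genes, 9 are annotated as pseudogenes. Reads of close copies may have been split or dropped in counting, whose rule for such reads the sources used here do not state. Exons of 15 kept genes overlap those of another annotated gene.

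In SIN against WT, more of these genes fell than rose. The test was run on all 15404 genes with enough counts, and 67 of the 68 members were among them, all but bath-33. Of the 67, 16 fell and 7 rose at an adjusted p under 0.05, which is 23.9% lower and 10.4% higher. One of the 7, math-7, was kept through its SIN counts alone, and without it 6 of 66 rose. Over all genes tested 25.5% passed, 13.3% lower and 12.1% higher. The members' median log2 change was -0.18, against 0.04 for all genes. Both SIN libraries lay below both WT libraries in 34 members and above both in 19, where 35.0% of all genes lay below and 38.4% above. With upper-quartile scaling the median of all genes moved to 0.17 and its calls to 2329 higher and 1227 lower, against 1871 and 2051, while the members had 7 higher and 15 lower and a median of -0.04. Most calls were lost when a SIN or WT library was left out. Without SIN replicate 1, no member passed higher and 1 lower (bath-1, adjusted p = 0.0479). Without SIN replicate 2, 1 passed higher (bath-36) and none lower, and without WT replicate 1 or WT replicate 2 none passed in either direction. Without either N2 library, 10 passed higher and 23 lower. The calls over all genes dropped in the same fits, to 322 higher and 287 lower without SIN replicate 1, 415 and 143 without SIN replicate 2, 257 and 104 without WT replicate 1, and 280 and 111 without WT replicate 2. They grew to 3257 and 3443 without N2 replicate 1 and to 3283 and 3468 without N2 replicate 2. No member that passed in SIN against WT changed direction in any of the 12 other fits.

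**Figure D2:**
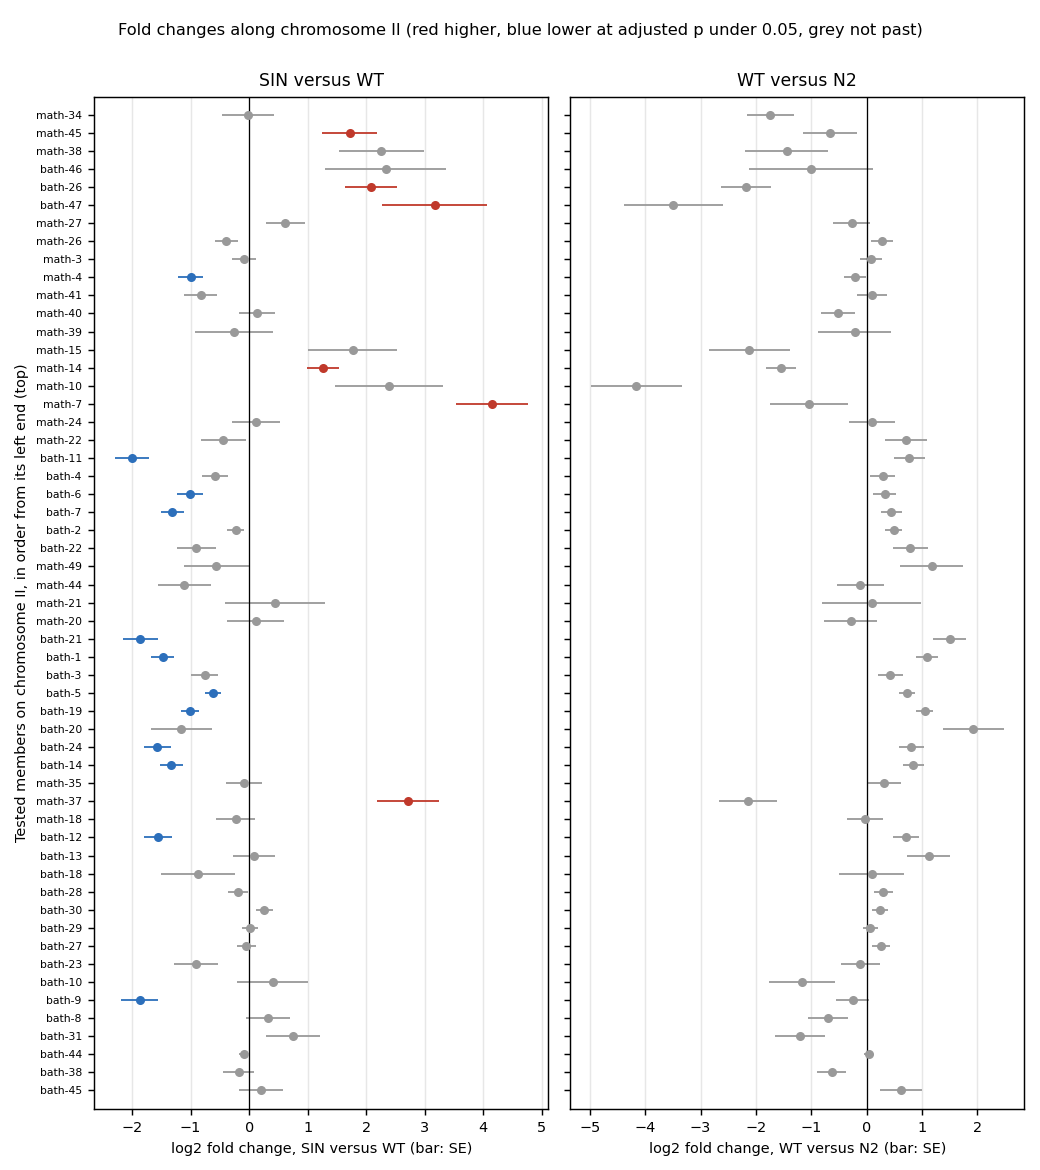
log2 fold change with its standard error (bars) for the 55 tested members on chromosome II, in order along the chromosome, in SIN versus WT (left) and WT versus N2 (right); the panels share the WT libraries, so they are not independent. On the left 12 members are lower (blue) and 6 higher (red), with 9 of the blue points in the arrays from bath-11 to bath-14, and on the right no point passed.

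The array from bath-21 to bath-14 held the densest group of falls. All 8 of its bath genes lie on the minus strand of chromosome II, and 6 of them fell in SIN against WT. In SIN against N2, none of the 11 kept genes of the run from math-44 to bath-14 passed, where 25.6% of all genes did. bath-21 (II, 2014902 to 2026625) stood at 1.15 and 1.06 RPKM in SIN, 3.85 and 4.19 in WT, and 1.65 and 1.19 in N2. It was 3.62-fold lower in SIN than in WT (log2 -1.86 ± 0.30 SE, adjusted p = 0.00962). Its neighbour bath-1 stood at 4.3 and 3.56 RPKM in SIN, 11.2 and 10.8 in WT, and 4.89 and 5.39 in N2, and fell 2.8-fold (adjusted p = 0.00592), the lowest p of any member. In both genes the WT libraries stood alone at the top, and SIN and N2 lay close together.

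In the next genes of this array WT was again the highest strain. bath-5, with 21.4 and 19.6 RPKM in SIN, 30.8 and 32.4 in WT, and 17.3 and 20.6 in N2, fell 1.54-fold in SIN against WT (adjusted p = 0.0244). bath-19 had 5.75 and 6.18 RPKM in SIN, 11.9 and 12.1 in WT, and 5.96 and 5.66 in N2, and fell 2.01-fold (adjusted p = 0.00856). The SIN and N2 values of both genes overlapped, with WT above them. bath-3, which lies between bath-1 and bath-5, had 4.79 and 4.02 RPKM in SIN, 7.24 and 7.69 in WT, and 4.76 and 6.3 in N2, and its difference did not pass (adjusted p = 0.052).

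At the right end of the array, bath-24 had 2.96 and 2.42 RPKM in SIN, 7.91 and 8.06 in WT, and 4.71 and 4.38 in N2. It fell 2.96-fold in SIN against WT (adjusted p = 0.00709). The pseudogene bath-14 had 3.47 and 3.8 RPKM in SIN, 9.17 and 9.07 in WT, and 5.33 and 4.88 in N2, and fell 2.51-fold (adjusted p = 0.00755). In these 2 genes N2 lay between SIN and WT without overlap. bath-20 was much less abundant, with 0.445 and 0.407 RPKM in SIN, 1.01 and 0.895 in WT, and 0.123 and 0.381 in N2, and did not pass (adjusted p = 0.153). The 3 math genes kept at the left of the same run, math-44, math-21 and math-20, did not pass either. Of 6 other genes tested within the run, 1 rose and 1 fell, so the falls were not shared by every gene in the stretch.

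A second array, bath-11 to bath-2 (II, 1913605 to 1922765, minus strand), had 3 falls among 5 genes. bath-11, a pseudogene, stood at 0.931 and 1.18 RPKM in SIN, 4.29 and 4.15 in WT, and 2.15 and 2.81 in N2, a 4-fold fall in SIN against WT (log2 -2.0 ± 0.29 SE, adjusted p = 0.00723). bath-6, also a pseudogene, had 3.08 and 3.2 RPKM in SIN, 5.85 and 6.84 in WT, and 4.7 and 5.38 in N2, and fell 2.02-fold (adjusted p = 0.0204). bath-7 had 5.28 and 5.05 RPKM in SIN, 12.3 and 13.3 in WT, and 8.28 and 10.5 in N2, and fell 2.48-fold (adjusted p = 0.00781). In all 3 the strains stood in the order SIN, N2, WT with no overlap. The other two genes of the array did not pass. bath-4, with 6.78 and 4.93 RPKM in SIN, 9.27 and 8.19 in WT, and 6.78 and 7.48 in N2, had an adjusted p of 0.104, and bath-2, the most abundant, with 25.9 and 26.7 RPKM in SIN, 30.2 and 31.4 in WT, and 19.4 and 24.5 in N2, one of 0.302. The 7 other genes tested in the wider run from math-15 to math-49 all had a negative change (median log2 -0.7), and 1 of them fell.

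The remaining falls on chromosome II lay in other runs. bath-12, a pseudogene at 2514977 to 2516097, had 1.99 and 1.93 RPKM in SIN, 6.17 and 5.4 in WT, and 3.87 and 3.18 in N2, and fell 2.95-fold in SIN against WT (adjusted p = 0.00842). bath-9 had 1.62 and 1.38 RPKM in SIN, 5.34 and 5.65 in WT, and 8.26 and 4.8 in N2, and fell 3.65-fold (adjusted p = 0.0107). SIN lay below every other library in both genes, and for bath-9 the N2 libraries spread around WT. Of its 1119 exon bases, 208 are shared with Y49F6C.2 on the same strand, so part of its reads could belong to that gene. math-4 was the only math gene to fall, with 0.986 and 1.1 RPKM in SIN, 2.16 and 2.03 in WT, and 2.19 and 2.65 in N2, a 2.01-fold difference (adjusted p = 0.0179). The other 7 genes of the bath-28 to bath-8 run did not pass in SIN against WT. They include bath-27, with 15.7 and 14.8 RPKM in SIN, 17 and 14.6 in WT, and 12.7 and 13.7 in N2, and bath-28, with 12.4 and 9.73 RPKM in SIN, 13.1 and 12.2 in WT, and 11.1 and 9.37 in N2. In both genes the SIN and WT libraries overlapped. Of the 1695 exon bases of bath-27, 610 are shared with F14D2.2 on the same strand, so part of its reads could belong to that gene.

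Off chromosome II, 4 genes fell in SIN against WT. bath-41 (III, 6720415 to 6722258), whose values are given above, fell 1.43-fold (log2 -0.51 ± 0.08 SE, adjusted p = 0.0102). bath-15 (III, 7774677 to 7776033) had 30.6 and 29.6 RPKM in SIN, 43.5 and 44.2 in WT, and 28.6 and 32.6 in N2, and fell 1.46-fold (adjusted p = 0.019), with SIN and N2 overlapping. bath-39 (V, 13459459 to 13461803) had 3.28 and 3.4 RPKM in SIN, 6.68 and 6.49 in WT, and 6.8 and 6.26 in N2, and fell 1.97-fold (adjusted p = 0.0132). bath-34 (I, 12750036 to 12752105) had 2.33 and 2.6 RPKM in SIN, 4.44 and 4.6 in WT, and 5.1 and 6.25 in N2, and fell 1.83-fold (adjusted p = 0.0285), a call lost under upper-quartile scaling. In bath-41, bath-39 and bath-34 the SIN libraries stood alone at the bottom. bath-35, within 10 kb of bath-34 in the same orientation, had 3.93 and 2.93 RPKM in SIN, 4.94 and 4.27 in WT, and 4.49 and 3.39 in N2, and did not pass (adjusted p = 0.297). Shared exon bases were few, 89 on the opposite strand for bath-41 and 68 on the same strand for bath-39.

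**Figure D3:**
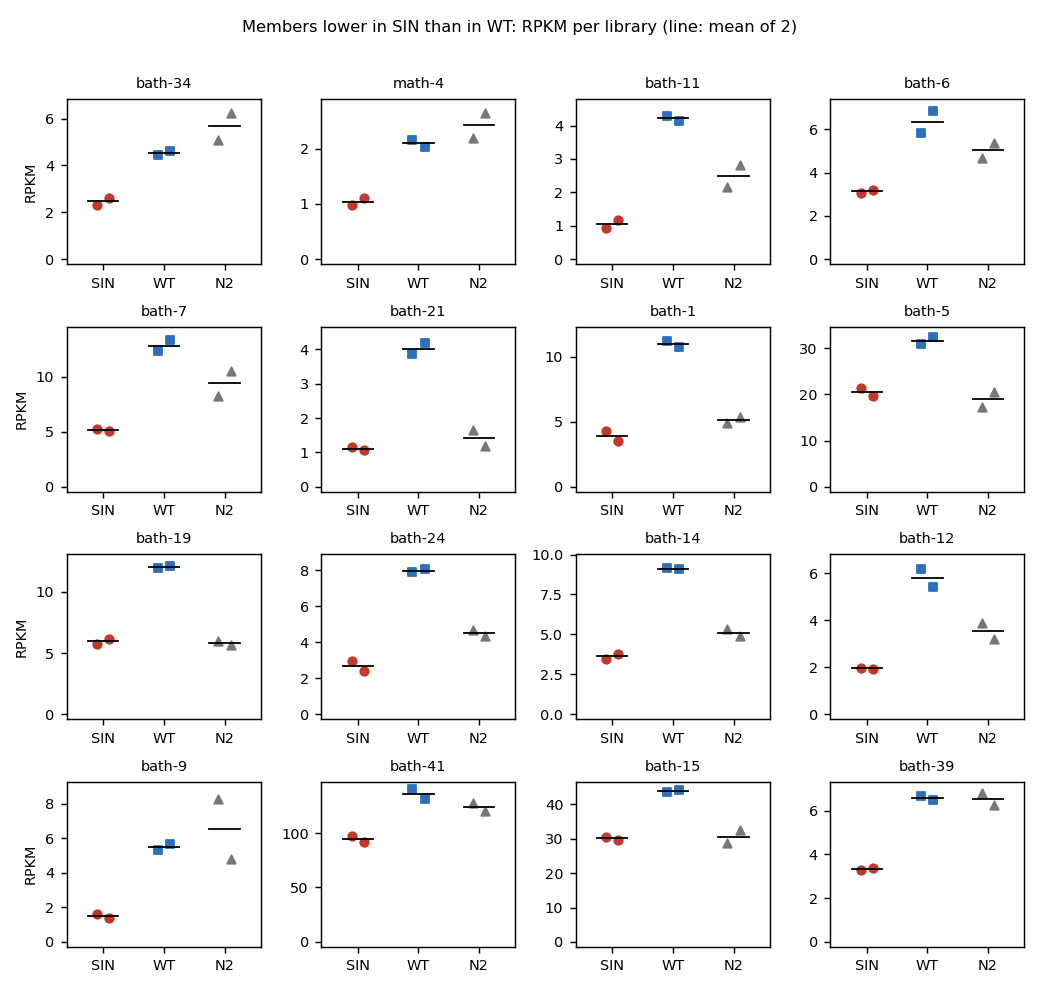
RPKM per library of the 16 members lower in SIN than in WT, 1 panel each with its own linear axis from 0, with SIN as circles, WT as squares, N2 as triangles and a line at the mean of the 2 libraries. In all 16 panels both SIN points lie below both WT points; N2 lies near SIN in panels such as bath-19 and bath-15, and near WT in bath-39.

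The genes that rose in SIN against WT were mostly of low level, and 5 of the 7 averaged under 1 RPKM. The run from math-38 to bath-33 held 2 of them, and all 4 of its tested genes had both SIN libraries above both WT libraries. bath-26 had 35 and 20 counts in SIN, 7 and 5 in WT, and 36 and 29 in N2, and was 4.23-fold higher in SIN than in WT (log2 2.08 ± 0.45 SE, adjusted p = 0.0211). bath-47 had 32 and 17 counts in SIN, 5 and 0 in WT, and 44 and 24 in N2, and was 9.02-fold higher (log2 3.17 ± 0.90 SE, adjusted p = 0.0456). In both genes SIN and N2 overlapped and WT stood alone at the bottom. The size of the bath-47 fold rests on a few reads: it was 4.96-fold without WT replicate 2, and without WT replicate 1, which leaves no WT read, at least 6.73-fold against 3 counts in the remaining library. math-38, with 15 and 11 counts in SIN, 4 and 1 in WT, and 6 and 10 in N2, did not pass (adjusted p = 0.0611). bath-46, with 21 and 12 counts in SIN, 4 and 2 in WT, and 1 and 13 in N2, did not pass either (adjusted p = 0.15). The exons of bath-26 and bath-46 share 28 bases on opposite strands, and those of bath-47 and bath-33 share 22.

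Of the other genes that rose, 4 lie elsewhere on chromosome II. math-7 had 41 and 37 counts in SIN, 3 and 1 in WT, and 7 and 3 in N2, 17.7-fold higher in SIN than in WT in the fit, and 29.6-fold without WT replicate 1. It met the count rule through the SIN libraries alone, so that it stood high there was a condition of its being kept, and its values are a description. math-37 had 47 and 43 counts in SIN, 9 and 4 in WT, and 48 and 21 in N2, and rose 6.56-fold (adjusted p = 0.0154). math-45 had 68 and 47 counts in SIN, 21 and 12 in WT, and 44 and 18 in N2, and rose 3.3-fold (adjusted p = 0.0406). math-14 had 137 and 94 counts in SIN, 47 and 43 in WT, and 171 and 142 in N2, and rose 2.39-fold (adjusted p = 0.0195). In RPKM, N2 lay between SIN and WT for math-37, overlapped WT for math-45 and stood above SIN for math-14. Close by, math-10 had 7 and 5 counts in SIN, 2 and 0 in WT, and 24 and 22 in N2. It was kept through N2 alone, and its ratio of SIN to WT counts was 5.68, with a 95% counting interval of 1.26 to 52.2 that covers counting error only.

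bath-36 (V, 15187888 to 15189588) was the abundant gene among those that rose. It had 18.6 and 11.1 RPKM in SIN, 7.25 and 6.76 in WT, and 5.96 and 7.19 in N2, and was 2.12-fold higher in SIN than in WT (log2 1.08 ± 0.27 SE, adjusted p = 0.03). The SIN libraries differed from each other by more than WT from N2, and both stood above all other libraries. It was also the one gene listed for 22G RNA that rose. Of its 1592 exon bases, 101 are shared with the noncoding gene Y75B12B.16 on the same strand.

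**Figure D4:**
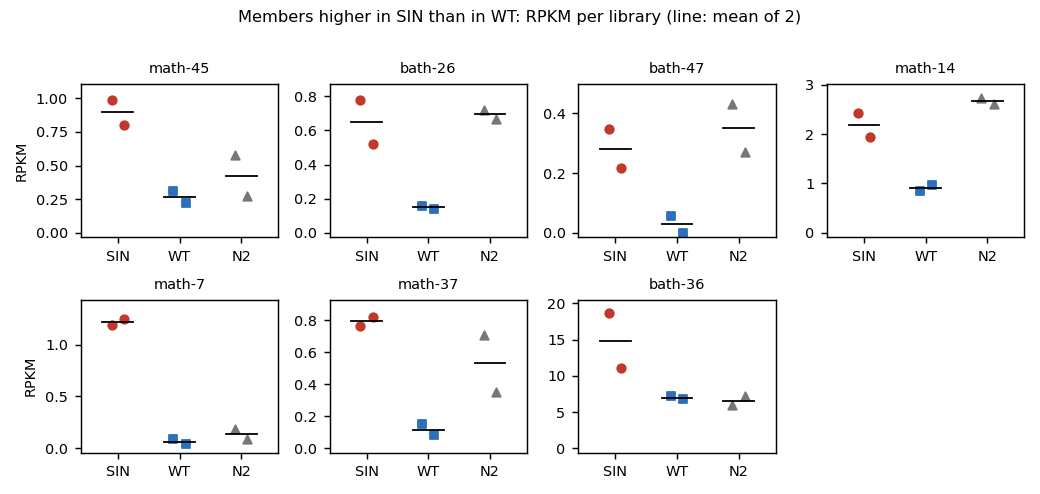
RPKM per library of the 7 members higher in SIN than in WT, 1 panel each with its own linear axis from 0, with SIN as circles, WT as squares, N2 as triangles and a line at the mean of the 2 libraries. The WT mean is the lowest in 6 panels, and in bath-36 WT and N2 overlap, with SIN alone at 18.6 and 11.1 RPKM.

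Set against N2, SIN had 10 members lower and 3 higher among the 67 tested, which is 14.9% and 4.48%. Over all genes 25.6% passed, 13.3% lower and 12.3% higher. Both SIN libraries lay below both N2 libraries in 24 members and above both in 13, where 33.1% of all genes lay below and 29.6% above. Without math-7, 2 of 66 were higher, and math-10, kept through N2 alone, is among the 24. With upper-quartile scaling 8 members were lower and 4 higher. This comparison shares the SIN libraries with the previous one. The largest fall was that of bath-9, 4.34-fold (adjusted p = 0.00689), followed by math-34 at 3.39-fold (adjusted p = 0.0266). math-34 had 11 and 10 counts in SIN, 10 and 10 in WT, and 49 and 32 in N2, so both transgenic strains lay below N2 and SIN and WT overlapped. bath-11 fell 2.35-fold (adjusted p = 0.0261), math-4 2.32-fold (adjusted p = 0.0103), bath-34 2.3-fold (adjusted p = 0.0113) and bath-39 1.95-fold (adjusted p = 0.0131). Smaller falls were those of bath-7 (1.82-fold, adjusted p = 0.024), bath-12 (1.8-fold, adjusted p = 0.0442), bath-41 (1.31-fold, adjusted p = 0.0218) and math-33 (1.27-fold, adjusted p = 0.0351). Of these 10, only math-34 and math-33 had not passed in SIN against WT.

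The genes higher in SIN than in N2 were bath-36 (2.26-fold, adjusted p = 0.0239), bath-30 (1.41-fold, adjusted p = 0.0439) and math-7, whose 8.6-fold difference is a description, since its SIN counts alone kept it. bath-30, listed for 22G RNA, had 63 and 51.9 RPKM in SIN, 46.5 and 49.1 in WT, and 37.2 and 44 in N2, with no overlap between strains. The math-7 fold was 12.9 without N2 replicate 1. Without SIN replicate 1 no member passed in either direction, and without SIN replicate 2 only 1 did, higher. Without WT replicate 1, 1 passed higher and 3 lower, and without WT replicate 2, 1 and 2. Without N2 replicate 1, 4 passed higher and 11 lower, and without N2 replicate 2, 7 and 14. A fit to the SIN and N2 libraries alone left 1 higher and 2 lower. Over all genes the same fits gave 452 higher and 252 lower without SIN replicate 1, 645 and 264 without SIN replicate 2, 1205 and 862 without WT replicate 1, and 1197 and 640 without WT replicate 2, against 1899 and 2043 with all libraries. They gave 2388 and 3018 without N2 replicate 1, 2532 and 3496 without N2 replicate 2, and 1289 and 625 with SIN and N2 alone.

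The 23 genes that passed in SIN against WT thus fell into kinds by where N2 stood. In 10 of them, 8 lower and 2 higher (math-7 among them), SIN also passed against N2 in the same direction, while 13 did not pass there. The mean of N2 was nearer to SIN in 11 of the 23 and nearer to WT in 12. Among the 16 lower genes, both WT libraries lay above both N2 libraries in 12. Among the 7 higher genes, WT stood under N2 in both libraries in 5. Over all genes that passed in SIN against WT, 64.3% also passed against N2 in the same direction, and 18.5% had the mean of N2 nearer to SIN. Of the lower ones, 50.7% had both WT libraries above both N2 libraries, and 36.8% of the higher ones had them below. The 3 strains' values are tied together in these counts, since the genes were picked by where WT stood against SIN, and they are given as a description.

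In WT against N2 no member passed in the edgeR fit over the 3 strains. Over all genes 0.11% passed, 17 in all, 0.0454% higher and 0.0649% lower. Both WT libraries lay above both N2 libraries in 27 members and below both in 18, where 25.4% of all genes lay above and 27.7% below. At an unadjusted p under 0.05 there were 23 members, 13 higher and 10 lower, where 20.1% of all genes had such a p. The lowest adjusted p of a member was 0.0715, for bath-19, 2.07-fold higher in WT than in N2, which passed with the replicate block (adjusted p = 0.0403). In the same array, bath-21 was 2.83-fold higher (adjusted p = 0.102) and bath-1 2.14-fold higher (adjusted p = 0.09) in WT. math-14 was 2.92-fold lower in WT than in N2 (adjusted p = 0.0837), and bath-26 4.53-fold lower (adjusted p = 0.105). DESeq2, which passed 9.22% of the genes to which it gave an adjusted p, passed 9 of the members. Without a filter on low counts, edgeR passed 8 members higher and 8 lower, beside 798 and 1419 of all genes. DESeq2 put bath-1, bath-2, bath-5, bath-14, bath-15, bath-19, bath-21 and bath-24 higher and math-14 lower in WT. With edgeR, 3 members passed higher and 2 lower without N2 replicate 1, and 13 and 11 without N2 replicate 2. Over all genes these fits passed 245 higher and 398 lower, and 1756 and 2445. math-10, kept through its N2 counts alone, is among the lower members in the library counts, the unadjusted p and every edgeR count with lower calls. Its low place in WT is thus a description. The N2 libraries differed widely in some members: bath-10 had 187 and 44 counts, bath-38 had 1335 and 684, and math-27 had 898 and 366.

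The falls in SIN against WT lay mostly among members in the germline classes of the deposited table. The table marks genes as germline-enriched (after Reinke) or as germline-expressed or germline-specific (after Wang), and 28 tested members carry at least 1 of these marks. Of the 28, 12 fell and 1 rose, with a median log2 change of -0.53. Of the 39 tested members with no mark, 4 fell and 6 rose, with a median of 0.12. Over all genes in a class, 25.2% fell and 14.5% rose (median -0.15), and over all others 6.0% fell and 10.7% rose (median 0.16), so falls were also more frequent among germline-class genes as a whole. The 12 falls were those of bath-1, bath-5, bath-6, bath-7, bath-12, bath-15, bath-19, bath-21, bath-24, bath-34, bath-39 and bath-41, and the rise was that of bath-36. In SIN against N2 the split differed. There 6 of the 28 fell and 1 rose (median log2 -0.15), and 4 of the 39 fell and 2 rose, math-7 among them (median -0.29). Over all genes in a class 19.8% fell and 17.8% rose against N2, and over all others 9.24% fell and 8.98% rose. Beside this stand the germline marker sums given above, lower in SIN than in WT and in N2, whose part was not tested.

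Level and group moved together with this. Of 21 tested members under 1 RPKM, 5 rose (math-7 among them) and none fell, where 15.4% of all genes at that level rose and 0.818% fell. Of 32 from 1 to under 10 RPKM, 2 rose and 13 fell, where 9.0% of all genes rose and 6.0% fell. Of 14 at 10 RPKM or more, none rose and 3 fell, where 12.5% of all genes rose and 26.0% fell. On chromosome II, 11 of 32 bath genes fell and 2 rose (median log2 -0.6), against 1 of 23 math genes that fell and 4 that rose (median 0.11), and over all genes tested on that chromosome 14.8% fell and 11.8% rose. Of the 9 pseudogenes, 4 fell and none rose, where 6.94% of all pseudogenes tested fell and 11.9% rose. Of the 12 genes listed for 22G RNA, 2 fell (bath-5 and bath-41) and 1 rose (bath-36), and over all genes listed there 24.7% fell and 16.1% rose. These splits were chosen with the values known and differ from each other in level, so they are a description.

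**Figure D5:**
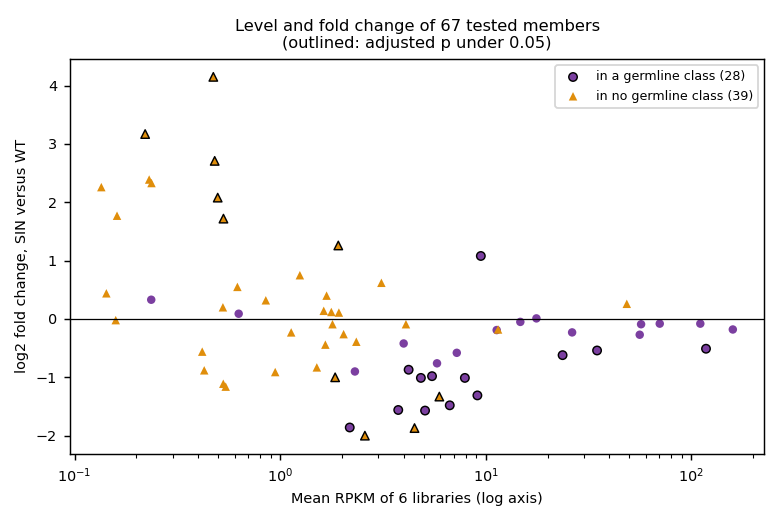
Mean RPKM over the 6 libraries (log axis) against the log2 fold change in SIN versus WT for the 67 tested members, with circles for the 28 in a germline class and triangles for the 39 in none; black outlines mark adjusted p under 0.05. Outlined circles sit below 0 with the exception of bath-36 at 1.08. Of the outlined triangles, 6 sit above 0, 5 of them under 1 RPKM, and 4 sit below 0.

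In the authors' deposited table, 64 of the members have an adjusted p for SIN against WT, and 24 are under 0.05, 18 lower and 6 higher. Of the 23 genes that passed here, 22 are among these with the same direction. The exception is bath-47, with a log2 fold change of 0.93 and an adjusted p of 0.0575 in the authors' deposited table. For the rarest genes its fold changes are smaller than those computed here: the authors' deposited table gives a log2 of 1.67 for math-7, the largest of any member, where the fit here gave 4.15.

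The partners of these proteins were followed through lists of genes chosen by role. Of 14 genes tested for the CUL-3 ligase core and for NEDD8, the small protein whose attachment activates cullins, 5 fell in SIN against WT and none rose (median log2 -0.29, all genes 0.04), where 13.3% of all genes fell. All 14 stood above 10 RPKM in every library, and of all genes at 10 RPKM or more 26.0% fell (median -0.19). The count of 5 became 8 with no filter on low counts and 10 with SIN and WT alone. Over all genes these fits had 3031 of 24486 and 3315 of 14782 lower. The count grew without either N2 library and shrank without a SIN or WT library, as did the lower calls over all genes. With upper-quartile scaling 1 gene rose. ubc-12, which conjugates NEDD8, had 37.7 and 28.8 RPKM in SIN, 64.7 and 61.3 in WT, and 59.9 and 52.4 in N2, and fell 1.89-fold (adjusted p = 0.0117). ula-1 and rfl-1, the subunits of the NEDD8-activating enzyme, fell 1.58-fold (adjusted p = 0.0121) and 1.48-fold (adjusted p = 0.00892). csn-4, of the COP9 signalosome that removes NEDD8, fell 1.36-fold (adjusted p = 0.0125). The scaffold gene cul-3 had 67 and 68.2 RPKM in SIN, 83.9 and 82.4 in WT, and 106 and 94.4 in N2, and fell 1.23-fold (adjusted p = 0.0472). Each of these 5 had both SIN libraries below both WT libraries.

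The adaptor gene mel-26 stood at or above bath-42 in each library, with 231 and 202 RPKM in SIN, 176 and 172 in WT, and 185 and 180 in N2. It did not pass in SIN against WT (1.24-fold higher, adjusted p = 0.0591), though it did in 6 of the 12 other fits, and over those 12 its adjusted p ran from 0.011 to 0.291. Its substrate gene mei-1 (1.07-fold higher, adjusted p = 0.528) and the other two genes of this small list did not pass in the fit over 3 strains either. Against N2, 2 of the 4 genes of this list were higher in SIN, mei-1 among them (1.35-fold, adjusted p = 0.0245), where 12.3% of all genes rose. Of 22 tested BTB genes without a bath name, 4 fell in SIN against WT, btb-7 the most at 3.01-fold (adjusted p = 0.0036), and 3 rose, kel-10, btb-2 and btb-16, where 13.3% of all genes fell and 12.1% rose. With upper-quartile scaling 2 fell. With SIN and WT alone 6 fell and 5 rose, beside 3315 lower and 3206 higher of 14782 genes. More passed without either N2 library and fewer without a SIN or WT library, over all genes as well. kel-10 had 1.04 and 1.88 RPKM in SIN, 0.0865 and 0.217 in WT, and 0.0655 and 0.112 in N2, and rose 9.69-fold (adjusted p = 0.0114). Of 8 ubiquitin-specific proteases, the enzyme class to which math-33 belongs, 1 rose and 2 fell, where 12.1% of all genes rose and 13.3% fell. usp-3 rose 1.85-fold (adjusted p = 0.00802), and usp-33 (1.64-fold, adjusted p = 0.0122) and usp-14 (1.24-fold, adjusted p = 0.0464) fell. None of 4 tested genes of the CUL-6 ligase list passed in SIN against WT. Against N2, 1 of the 4 was higher in SIN, where 12.3% of all genes rose.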

How the data were processed

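Messenger RNA of whole adults was read in 6 libraries, from stranded libraries made with 500 ng of total RNA, per the labels' protocols. The deposited table holds raw read counts per gene, per the file headers, and the build is WBcel235. STAR, HTSeq, DESeq2 and DESeq are the tools in the submitters' processing notes, with no version or role given. How strand was treated in counting, and which annotation release was used, the sources used here do not state. The deposited 22G columns are a normalized score, RPM values and an enrichment fraction from other studies, per the file headers. The authors' log2 fold changes and p-values stand in the deposited table.

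The members and the gene lists were chosen with earlier results of these data known. Counts were fitted in R 4.3.3 with edgeR 4.0.16: TMM scaling, filterByExpr with a minimum count of 10 and a minimum total of 15, 1 quasi-likelihood fit over 3 groups (3 residual degrees of freedom), and Benjamini-Hochberg adjustment over 15404 genes at a threshold of 0.05. A standard error is the size of the log2 change over the root of the F statistic. RPKM was computed from TMM-scaled counts and deposited lengths. Replicates differed beyond sampling noise in every strain, with a chi-square per degree of freedom of 8.859 to 122.6. Named were the members past the threshold in any comparison, the 5 most abundant and those with a 22G entry. From each list up to 4 genes past the threshold in SIN against WT were named, with mel-26, mei-1 and cul-3. Other members, named as neighbours or as examples, were chosen after their values were seen. Values of every library were planned for the 25 named members with the smallest p, and were printed for others too. Alternatives were other scalings, no filter, DESeq2 1.42.0, the 2 groups alone, a replicate term and leaving out each library.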

Additional observations from a re-analysis of the deposited data

How the results depend on the processing

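Counts of members passing stayed within 1.5 times under the other scalings. Fitting SIN and N2 alone gave 1 higher and 2 lower, against 3 and 10 over 3 strains. In WT against N2, where neither direction had a call, DESeq2 gave 8 higher and 1 lower, no filter on low counts 8 and 8, and the replicate block 1 higher. Leaving out 1 library each gave 0 to 10 higher and 0 to 23 lower in SIN against WT, 0 to 7 higher and 0 to 14 lower in SIN against N2, and 0 to 13 higher and 0 to 11 lower in WT against N2. With the replicate block SIN against WT had 7 higher and 18 lower, and SIN against N2 3 and 12. Differences between replicates 1 and 2 correlated at 0.344 (SIN and WT), 0.377 (SIN and N2) and 0.236 (WT and N2), but with 2 numbers per strain the samples share only a number.

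Among the members that passed in SIN against WT or in SIN against N2, changes of sign befell only values that had not passed. Under upper-quartile scaling log2 became 0.05 for math-33 and 0.12 for math-34 in SIN against WT, and -0.04 for bath-39 in WT against N2. bath-15 in SIN against N2 became 0 under DESeq2, 0.01 under RLE scaling, 0.03 with 2 groups and 0.06 under upper-quartile scaling. With 1 library left out, values ran from -0.19 to 0.14 for math-34 in SIN against WT. In SIN against N2 they ran from -0.12 to 0.07 for bath-15, -0.02 to 0.09 for bath-19, -0.42 to 0.16 for bath-26, -0.7 to 0.06 for bath-47 and -0.02 to 0.24 for bath-5. In WT against N2 they ran from -0.04 to 0.24 for bath-36, -0.04 to 0.08 for bath-39 and -0.58 to 0.19 for bath-9. In RPKM, larger changes also turned among members that passed in no comparison. bath-46 was lower in WT than in N2 (log2 -1.01), but its WT mean of 0.0844 RPKM lay above N2 replicate 1 (0.0229 RPKM). bath-10 was lower in SIN than in N2 (log2 -0.77), but its SIN mean of 1.46 RPKM lay above N2 replicate 2 (1.06 RPKM). The cause of the changes of sign was not tested.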
